A study of Mus musculus with 18 samples.

Results

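The Y RNAs Rny1 and Rny3, the vault RNA Vaultrc5, the 7SK RNA Rn7sk and the catalytic RNAs Rpph1 of RNase P and Rmrp of RNase MRP were examined in a small RNA sequencing experiment on mouse hippocampus. The members were chosen by name, as the rows called exactly Rny1, Rny3, Vaultrc5, Rn7sk, Rpph1 and Rmrp, and all 6 were present among 3574 rows. There they belonged to the 1480 rows of other small RNA genes, those that are neither tRNA nor mitochondrial rRNA. The 1480 include 476 snoRNA rows. Male mice of 2 genotypes, wild type (WT) and 5xFAD, a transgenic model of familial Alzheimer's disease whose transgenes are driven by the neuronal Thy-1 promoter, received at 6 months an injection into both hippocampi of an adeno-associated virus that carried GFP and a short hairpin RNA. The hairpin was either a control (shCT) or directed against RTP801 (shRTP801), the stress-induced protein encoded by Ddit4. Every mouse of the study therefore carried virus, GFP and a hairpin, and the virus was designed to transduce neurons, so a hippocampal extract also holds RNA of cells that were not silenced. Tissue was taken 4 weeks later, with 1 library per mouse: 5 of WT shCT, 4 of WT shRTP801, 3 of 5xFAD shCT and 6 of 5xFAD shRTP801. Ddit4 mRNA is not measured by this assay, so the silencing was not checked here. In mice of the same groups the authors report a knockdown by western blot and RT-qPCR. Their supplement gives no significant treatment effect for either measure. Mice are named by group and by the number in their label.

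These RNAs are made by RNA polymerase III, like tRNAs, but none of them is translated or decodes mRNA. The Y RNAs are bound by the Ro60 protein and take part in RNA quality control. Vault RNA is a component of the vault particle. The 7SK RNA holds the elongation factor P-TEFb in an inactive complex with Hexim and Larp7 and so limits release of paused RNA polymerase II. Rpph1 is the RNA of RNase P, which removes the 5′ leader of precursor tRNAs, and Rmrp is the RNA of the related RNase MRP, which cleaves precursor ribosomal RNA. In RefSeq (GRCm38.p6) Rny1 and Rny3 lie near each other beside Pdia4, Rn7sk lies beside Cilk1, Rpph1 beside Parp2 and Rmrp beside Ccdc107.

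The libraries were made from RNA cut from a gel between 60 and 100 nucleotides, hydrolysed, and read for 50 bases from both ends. The annotated lengths of all 6 members exceeded that window: 101 nucleotides for Rny3, 111 for Rny1, 275 for Rmrp, 325 for Rpph1, 332 for Rn7sk and 345 for Vaultrc5. A value here therefore counts reads from the recovered fraction of each RNA and not its total amount in the tissue. The RefSeq record of Vaultrc5 is typed as a long noncoding RNA. Whether the vault RNA itself has the annotated length was not checked, and values per unit of length rest on it. Levels are given as reads per 1000000 reads of the library (RPM), with near-identical gene copies counted once. In bulk tissue, fewer cells of a type and less RNA per cell cannot be told apart.

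The 18 libraries held 18126375 to 34488923 reads, summed over rows with near-identical gene copies counted once. With every copy counted, the sums were 18527898 to 89228299. In 3 libraries, WT shCT mouse 5, WT shRTP801 mouse 4 and 5xFAD shRTP801 mouse 7, mature tRNAs took 98.0% to 98.7% of reads, and snoRNAs 0.0234% to 0.123%. In the other 15, mature tRNAs took 31.9% to 85.8% and snoRNAs 0.83% to 7.42%. None of the 3 was a 5xFAD shCT library, so results are given with and without them. Of the 29 brain and neuron rows looked for, 7 remained once names not found were left out and near-identical copies were counted once. Their sum was 0 to 16.7 RPM per library, from 3.27 to 16.7 in 5xFAD shCT, 0.0531 to 4.92 in 5xFAD shRTP801, 0.0551 to 12.2 in WT shRTP801 and 0 to 3.33 in WT shCT. By the same count, no row of the microglia and blood, smooth muscle, liver, muscle or pancreas lists remained, and 1 of 3 endothelial rows did, at up to 0.488 RPM. The part of these differences in the results below was not tested.

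The 6 RNAs together made up a small and variable share of a library, from 7.56e-05% to 0.234% of reads with a median of 0.0846%. Per unit of annotated length, the Y RNAs were the most abundant. Over the 15 libraries the median was 3698 RPM per kilobase for Rny3 and 3596 for Rny1, against 175 for Rn7sk, 95.3 for Rmrp, 4.24 for Vaultrc5 and 4.19 for Rpph1. Rny1 and Rny3 are also the members whose length lies nearest to the gel window, and the part of length in this order was not tested. In reads, the medians over all 18 libraries were 6801 for Rny1, 6132 for Rny3, 1240 for Rn7sk, 523 for Rmrp, 32.5 for Rpph1 and 31.0 for Vaultrc5, so Rpph1 and Vaultrc5 were the least deeply measured. Intervals and detection limits quoted for single libraries cover counting error only.

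**Figure D1:**
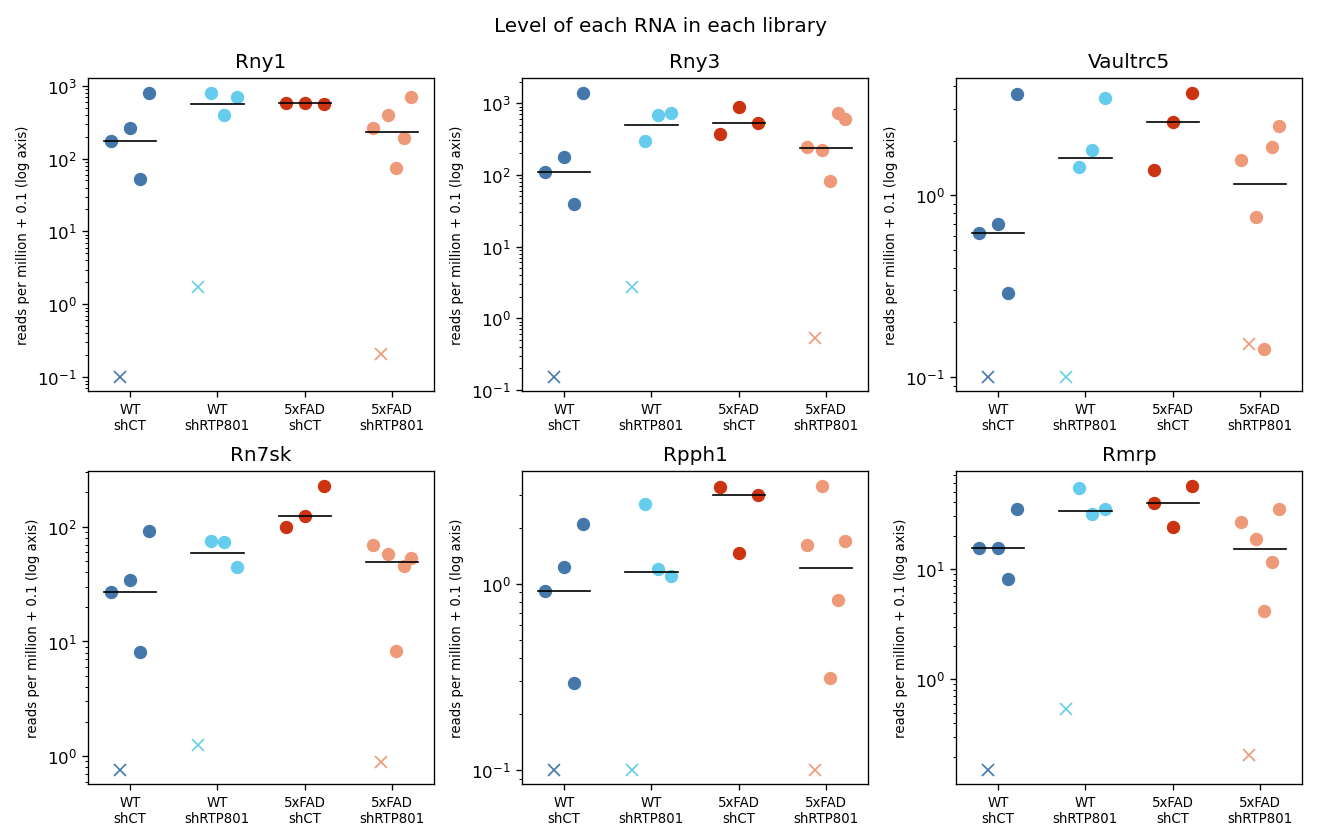
Level of each RNA in each of the 18 libraries, as RPM plus 0.1 on a log axis, by group. Points are mice, crosses are the 3 libraries with over 95% mature tRNA, and bars are group medians. For Rn7sk the 3 5xFAD shCT mice (99.7, 123 and 228 RPM) lie above the other 15 libraries, the highest of which is at 92.3 RPM.

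Rn7sk, the 7SK RNA, was the member whose 5xFAD shCT mice all lay above the mice of the other groups. Its level was 99.7 RPM in 5xFAD shCT mouse 1, 123 in mouse 16 and 228 in mouse 18. In WT shCT mice it was 26.9 RPM in mouse 3, 0.655 in mouse 5, 34.2 in mouse 6, 8.02 in mouse 11 and 92.3 in mouse 15. In WT shRTP801 mice it was 1.16 RPM in mouse 4, 74.5 in mouse 10, 73.5 in mouse 17 and 44.5 in mouse 21. The 6 5xFAD shRTP801 mice ranged from 0.796 RPM in mouse 7 to 69.6 in mouse 2, with a median of 49.3. The 3 5xFAD shCT mice were thus the 3 highest of all 18, and the 95% Wilson interval of the lowest of them, 95.9 to 104 RPM, did not overlap that of WT shCT mouse 15, 89.1 to 95.6 RPM. A row whose 3 5xFAD shCT values lay above all 15 others was uncommon: 0.355% of the 1973 rows tested showed it. The remaining groups overlapped one another for Rn7sk.

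The question of the first comparison was how the hippocampus of 5xFAD mice differs from WT under the control hairpin. Rn7sk was 3.34 ± 1.67 (SE) higher in 5xFAD shCT than in WT shCT on the log2(RPM + 0.1) scale (limma adjusted p = 0.554, n = 3 and 5). A two-sided exact permutation test of the same difference gave p = 0.0536, where 0.0179 is the smallest that 3 against 5 mice allow. The groups did not overlap, as in 3.7% of all rows in that direction. Without WT shCT mouse 5 and the other 2 libraries rich in mature tRNA, the difference was 2.29 ± 0.77 (limma adjusted p = 0.439, exact p = 0.0571), and 4.11% of rows then did not overlap in that direction. In RPM without the log the same exact test gave 0.0179, with group means of 150 ± 68.4 (SD) and 32.4 ± 36.1 RPM. The 5xFAD shCT libraries also had more snoRNA reads, 5.93% to 7.42% of the library against 0.0234% to 5.29% in WT shCT. Per 1000000 snoRNA reads, Rn7sk was 1500 to 3076 in 5xFAD shCT and 790 to 2800 in WT shCT, which overlapped. The 2800 was WT shCT mouse 5, with 13 Rn7sk reads, and without it the highest WT shCT value was 1745, still above the lowest 5xFAD shCT value. On the authors' size-factor normalised scale the groups overlapped too, with 1992 as the lowest 5xFAD shCT value and 3143 as the highest WT shCT value. With the reads of every gene copy in the library total, the 5xFAD shCT mice (65.5 to 141 RPM) stayed above all others, the highest of which was 53.6 RPM.

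Against 5xFAD shRTP801 mice, which differ from 5xFAD shCT in the hairpin, Rn7sk was again highest in 5xFAD shCT. The fitted difference of shRTP801 minus shCT was -2.79 ± 1.62 (limma adjusted p = 0.740, n = 6 and 3), with an exact permutation p of 0.0833. The 2 groups did not overlap, which held for 3.35% of all rows in that direction. Leaving out 5xFAD shRTP801 mouse 7 alone, or all 3 libraries, gave -1.89 and an exact permutation p of 0.0357, unadjusted and 1 of 24 such tests (3.45% of rows then did not overlap), while the adjusted p of limma without the 3 libraries was 0.464. In RPM without the log, the means were 39.2 ± 28.2 (SD) in 5xFAD shRTP801 and 150 ± 68.4 in 5xFAD shCT, and the exact p was 0.0119, the smallest possible with 6 against 3. Both comparisons used the same 3 5xFAD shCT mice. Per snoRNA read over the 15 libraries the difference was -0.48 ± 0.56 and the groups overlapped.

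Rny1 was about equal in the 3 5xFAD shCT mice and spread widely in every other group. It was 570 RPM in 5xFAD shCT mouse 1, 586 in mouse 16 and 556 in mouse 18, a mean of 571 ± 14.8 (SD). WT shCT mice had 171 RPM in mouse 3, 0 in mouse 5, 264 in mouse 6, 52.1 in mouse 11 and 802 in mouse 15. The 0 of mouse 5 allows up to 0.151 RPM, the level of 3 reads. WT shRTP801 mice had 1.65 RPM in mouse 4, 792 in mouse 10, 399 in mouse 17 and 707 in mouse 21. The 5xFAD shRTP801 mice ranged from 0.106 RPM in mouse 7 to 694 in mouse 19, with a median of 230. All groups overlapped. The difference of 5xFAD shCT from WT shCT was 3.66 ± 2.86 on the log2 scale (limma adjusted p = 0.554, exact permutation p = 0.268), and it was 1.45 ± 0.78 without the 3 libraries.

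Rny3, the shorter Y RNA, had the widest range in RPM. Its level was 373 RPM in 5xFAD shCT mouse 1, 892 in mouse 16 and 529 in mouse 18. WT shCT mice had 110 RPM in mouse 3, 0.0504 in mouse 5, 177 in mouse 6, 39.6 in mouse 11 and 1407 in mouse 15. The value of WT shCT mouse 15 was the highest of all 18 libraries, so the groups overlapped. WT shRTP801 mice had 2.59 RPM in mouse 4, 301 in mouse 10, 687 in mouse 17 and 743 in mouse 21. The 5xFAD shRTP801 mice ranged from 0.424 RPM in mouse 7 to 735 in mouse 14, with a median of 236. The difference of 5xFAD shCT from WT shCT was 3.67 ± 2.67 (limma adjusted p = 0.554, exact permutation p = 0.268), and 1.62 ± 0.91 without the 3 libraries.

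The ratio of the Y RNAs varied between libraries. Rny3 reads over Rny1 reads ranged from 0.380 in WT shRTP801 mouse 10 to 3.79 in 5xFAD shRTP801 mouse 14 over the 15 libraries, with a median of 0.929. The group medians were 0.951 and 0.929 in 5xFAD mice under shCT and shRTP801 and 0.716 and 1.05 in WT mice under shCT and shRTP801, and all groups overlapped. In 5xFAD shRTP801 mouse 14 the ratio rested on 19467 and 5137 reads, so counting error was small.

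**Figure D2:**
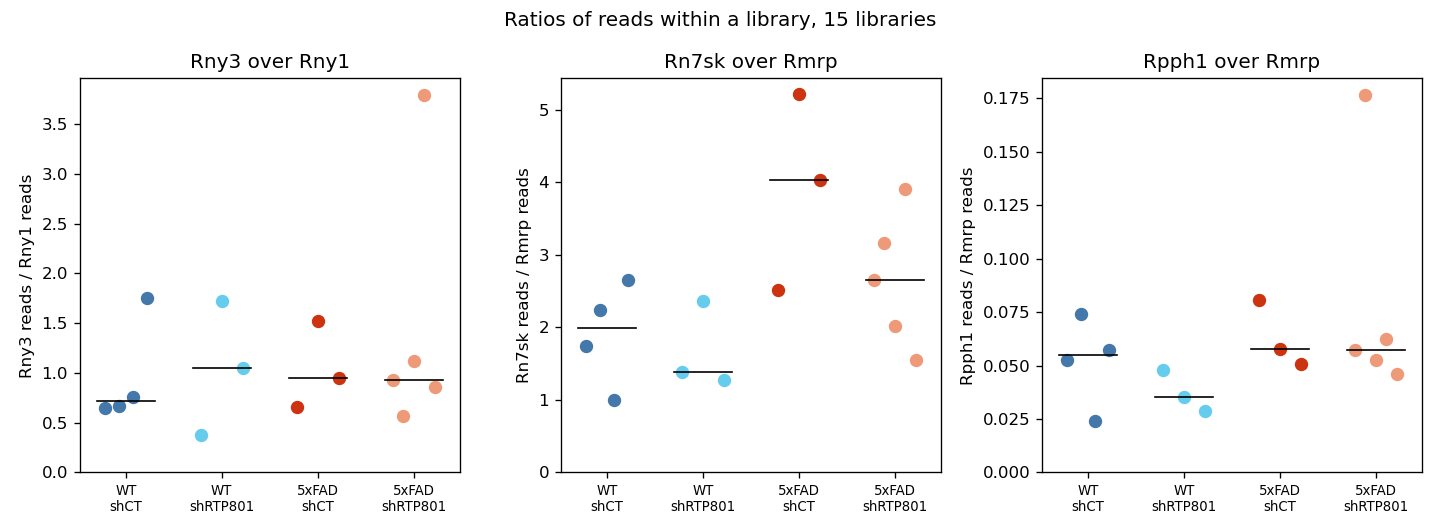
Ratios of reads of 2 RNAs within the same library for the 15 libraries with under 95% mature tRNA, on linear axes from 0. Points are mice and bars are group medians. Rny3 over Rny1 reaches 3.79 in 1 5xFAD shRTP801 mouse, and Rn7sk over Rmrp has its 2 highest values, 4.04 and 5.22, in 5xFAD shCT.

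Vaultrc5, the vault RNA, was measured by 0 to 119 reads per library. It was 1.28 RPM in 5xFAD shCT mouse 1, 2.42 in mouse 16 and 3.58 in mouse 18. WT shCT mice had 0.517 RPM in mouse 3, 0 in mouse 5, 0.592 in mouse 6, 0.192 in mouse 11 and 3.53 in mouse 15. Mouse 15 lay next to the highest 5xFAD shCT mouse, so the groups overlapped, while the other WT shCT values were below the 5xFAD shCT values. How often other rows separate with mouse 15 set aside was not counted. WT shRTP801 mice had 0 RPM in mouse 4, 1.33 in mouse 10, 1.68 in mouse 17 and 3.35 in mouse 21. The 5xFAD shRTP801 mice ranged from 0.0423 RPM in mouse 12, a single read, to 2.30 in mouse 19, with a median of 1.06. Vault RNA of 5xFAD shCT differed from WT shCT by 2.12 ± 1.28 (limma adjusted p = 0.554, exact permutation p = 0.125). Without WT shCT mouse 15 alone the difference was 2.81, with an exact permutation p of 0.0286. That p is unadjusted, is the smallest that 3 against 4 mice allow, and comes from runs that left out each mouse in turn. Without the 3 libraries the difference was 1.51 ± 0.87.

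Rpph1, the RNA of RNase P, had at most 85 reads in a library. Its level was 3.19 RPM in 5xFAD shCT mouse 1, 1.36 in mouse 16 and 2.88 in mouse 18. WT shCT mice had 0.813 RPM in mouse 3, 0 in mouse 5, 1.14 in mouse 6, 0.192 in mouse 11 and 1.99 in mouse 15. WT shRTP801 mice had 0 RPM in mouse 4, 2.56 in mouse 10, 1.10 in mouse 17 and 1.003 in mouse 21. The 5xFAD shRTP801 mice ranged from 0 RPM in mouse 7 to 3.25 in mouse 8, the highest of all libraries, with a median of 1.11. The groups overlapped, and 5xFAD shCT differed from WT shCT by 2.05 ± 1.22 (limma adjusted p = 0.554, exact permutation p = 0.107), or by 1.41 ± 0.75 without the 3 libraries. Between 5xFAD shRTP801 and WT shRTP801 the difference was 0.02 ± 1.08 on all libraries and -0.36 ± 0.72 without the 3.

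RNase P acts on precursor tRNAs, which the same libraries measured. In the 3 libraries without an Rpph1 read, which allow up to 0.151 RPM in WT shCT mouse 5, 0.165 in WT shRTP801 mouse 4 and 0.159 in 5xFAD shRTP801 mouse 7, there were 1.17, 1.01 and 1.72 precursor reads per 100 mature tRNA reads. In the other 15 there were 0.355 to 0.762, and Rpph1 ranged from 0.192 to 3.25 RPM. WT shCT mouse 11, with the lowest of these Rpph1 levels, had 0.762 precursor reads per 100 mature reads, whereas 5xFAD shRTP801 mouse 12, at 0.211 RPM, had 0.540. The other members ran the same way. Rny1 was 0 to 1.65 RPM in the 3 libraries and 52.1 to 802 RPM in the other 15. Over the 15, Pearson's r of log2 RPM with the log2 share of precursor reads was -0.613 for Rpph1. It was -0.847 for Rny3, -0.784 for Vaultrc5, -0.780 for Rny1, -0.772 for Rn7sk and -0.631 for Rmrp. The 3 libraries also stood apart in snoRNA and mature tRNA share, and the part of that in this pattern was not tested.

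**Figure D3:**
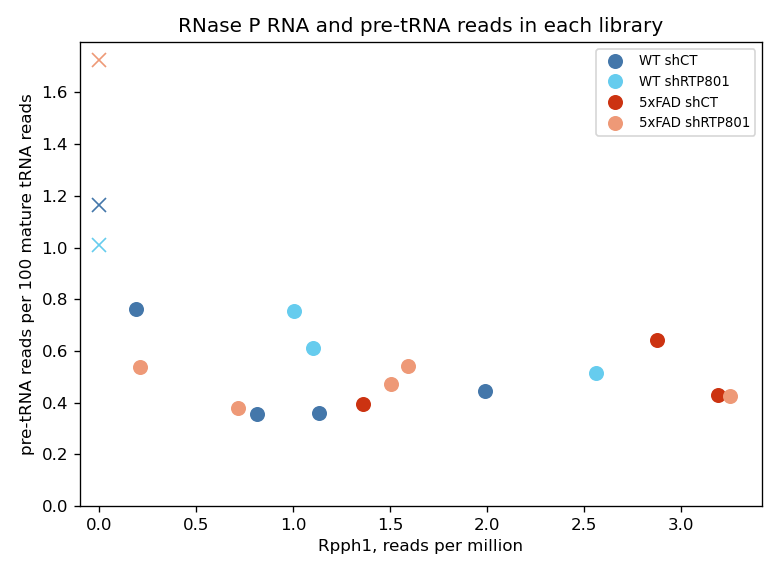
Precursor tRNA reads per 100 mature tRNA reads against the level of Rpph1 in RPM, both on linear axes, for the 18 libraries. Crosses are the 3 libraries with over 95% mature tRNA, which have no Rpph1 read and lie between 1.01 and 1.72, and points are the other 15, between 0.355 and 0.762. The other members also had low levels in these 3 libraries.

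Rmrp, the RNA of RNase MRP, followed the snoRNA content of the library most closely. It was 39.6 RPM in 5xFAD shCT mouse 1, 23.6 in mouse 16 and 56.6 in mouse 18. WT shCT mice had 15.4 RPM in mouse 3, 0.0504 in mouse 5, 15.3 in mouse 6, 8.02 in mouse 11 and 34.7 in mouse 15. WT shRTP801 mice had 0.440 RPM in mouse 4, 53.7 in mouse 10, 31.1 in mouse 17 and 34.9 in mouse 21. The 5xFAD shRTP801 mice ranged from 0.106 RPM in mouse 7 to 34.7 in mouse 19, with a median of 15.0, and all groups overlapped. The difference of 5xFAD shCT from WT shCT was 2.57 ± 1.87 (limma adjusted p = 0.554, exact permutation p = 0.179), and 1.22 ± 0.68 without the 3 libraries. Per 1000000 snoRNA reads, Rmrp lay between 398 and 806 in the 15 libraries, and its group medians were 596 and 652 in 5xFAD mice and 594 and 656 in WT mice, under shCT and shRTP801 respectively.

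Set against Rmrp in the same library, Rn7sk was 2.52, 5.22 and 4.04 times as high in reads in 5xFAD shCT mice 1, 16 and 18. The ratio was 1.91 ± 0.71 (SD, n = 4) in WT shCT, 1.68 ± 0.60 (n = 3) in WT shRTP801 and 2.66 ± 0.93 (n = 5) in 5xFAD shRTP801, without the 3 libraries. The 5xFAD shCT mean of 3.92 ± 1.35 (n = 3) was the highest of the 4, but 5xFAD shCT mouse 1 lay below the highest WT shCT mouse, at 2.66, and below 3 of the 5 5xFAD shRTP801 mice, at 2.65, 3.16 and 3.91. Rpph1 over Rmrp ranged from 0.0240 in WT shCT mouse 11 to 0.177 in 5xFAD shRTP801 mouse 8. The 5xFAD shCT mice, at 0.0508 to 0.0806, lay above the WT shRTP801 mice, at 0.0287 to 0.0477, and the other pairs of groups overlapped. Those 2 groups differ in both genotype and hairpin, and Rpph1 had 29 to 85 reads in these libraries. How often other ratios of rows separate them was not counted.

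Across the table, no row and no member passed an adjusted p of 0.05 in any comparison by limma (0% of 1973 rows, or 0 of 6 members, in each of the 4 comparisons and the interaction). At an unadjusted p of 0.05 limma gave 77 rows (3.9%) for 5xFAD shCT against WT shCT, 43 (2.18%) for 5xFAD shRTP801 against 5xFAD shCT, 33 (1.67%) for WT shRTP801 against WT shCT, 6 (0.304%) for 5xFAD shRTP801 against WT shRTP801 and 112 (5.68%) for the interaction, none of them a member. The quasi-likelihood test of edgeR and DESeq2, both on recovered reads, also called 0 rows in each. Weighting the libraries by their estimated quality (limma array weights) did make calls. For 5xFAD shCT against WT shCT, 31.2% of rows and 4 of 6 members were called, which were Rn7sk, Rny3, Vaultrc5 and Rpph1. For WT shRTP801 against WT shCT, 38.7% of rows and 3 members were called, which were Rny1, Rny3 and Vaultrc5. For the interaction, 33.8% of rows and every member but Rpph1 were called. Those weights were estimated from the same libraries, and 0% of rows were called in the other 2 comparisons. All 6 members were higher in 5xFAD shCT than in WT shCT, with a median difference of 2.96 on the log2 scale, beside 70.6% of all rows and their median of 0.83, although Rmrp turned to -0.11 per snoRNA read over the 15 libraries. All 6 were lower in 5xFAD shRTP801 than in 5xFAD shCT, with a median of -2.41, beside 61.1% of all rows and a median of -0.36, but Rny1, Rny3, Rpph1 and Rmrp lay between 0.10 and 0.46 per snoRNA read over the 15 libraries. By member that difference was -2.88 ± 2.77 for Rny1, -2.47 ± 2.58 for Rny3, -1.75 ± 1.24 for Vaultrc5, -1.63 ± 1.19 for Rpph1 and -2.34 ± 1.81 for Rmrp (limma adjusted p from 0.740 to 0.750, exact permutation p from 0.155 to 0.357). In RPM the highest group mean was in 5xFAD shCT for all 6, as for 42% of rows. Without the 3 libraries this held for 5 of 6, as for 27.1% of rows, Rny1 then being highest in WT shRTP801. On the authors' size-factor normalised scale the 5xFAD shCT mean was also highest for all 6. Per snoRNA read, it was highest for Rn7sk alone. Per snoRNA read without the 3 libraries, the 5xFAD shCT mean was the lowest of the groups for Rny1, Rny3 and Rmrp. Neighbours in the order of group means in RPM overlapped for every member except Rn7sk, whose first group, 5xFAD shCT, did not overlap its second, WT shRTP801. Per snoRNA read and on the size-factor normalised scale, the first and second groups of Rn7sk overlapped too.

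The other comparisons were of the hairpins in WT mice and of the genotypes under shRTP801. Between WT shRTP801 and WT shCT all 6 members were higher under shRTP801, by 0.40 for Rpph1 to 1.70 for Rny3, beside 66.5% of all rows (limma adjusted p = 0.997 for each, exact permutation p from 0.548 to 0.778), and without WT shCT mouse 5 the sign turned for every member but Vaultrc5, to between -0.57 and -0.24. Without WT shRTP801 mouse 4 alone the median of the 6 was 2.39, against 0.96 on all libraries, and without all 3 libraries every member was higher under shRTP801, by 0.74 for Rpph1 to 1.56 for Rny3 (limma adjusted p from 0.402 to 0.627). Between 5xFAD shRTP801 and WT shRTP801, members differed by -0.86 for Rny1 to 0.02 for Rpph1, and 47.2% of all rows were lower (limma adjusted p = 0.999 for each, exact permutation p from 0.629 to 0.990). Without the 3 libraries these differences lay between -1.35 for Rmrp and -0.36 for Rpph1 (limma adjusted p from 0.439 to 0.871). The interaction, which asks whether the difference between hairpins was another in 5xFAD than in WT, was -4.51 ± 3.82 for Rny1, -4.17 ± 3.56 for Rny3, -2.59 ± 1.70 for Vaultrc5, -3.55 ± 2.23 for Rn7sk, -2.03 ± 1.64 for Rpph1 and -3.42 ± 2.50 for Rmrp (limma adjusted p = 0.637 for each). It was negative for 66.3% of all rows. Without the 3 libraries the interaction of Rn7sk was -3.004 ± 1.06 (limma adjusted p = 0.1001), where 37 rows, 1.88%, were called and no member was among them, and per snoRNA read 20.1% of rows were called, again without a member.

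**Figure D4:**
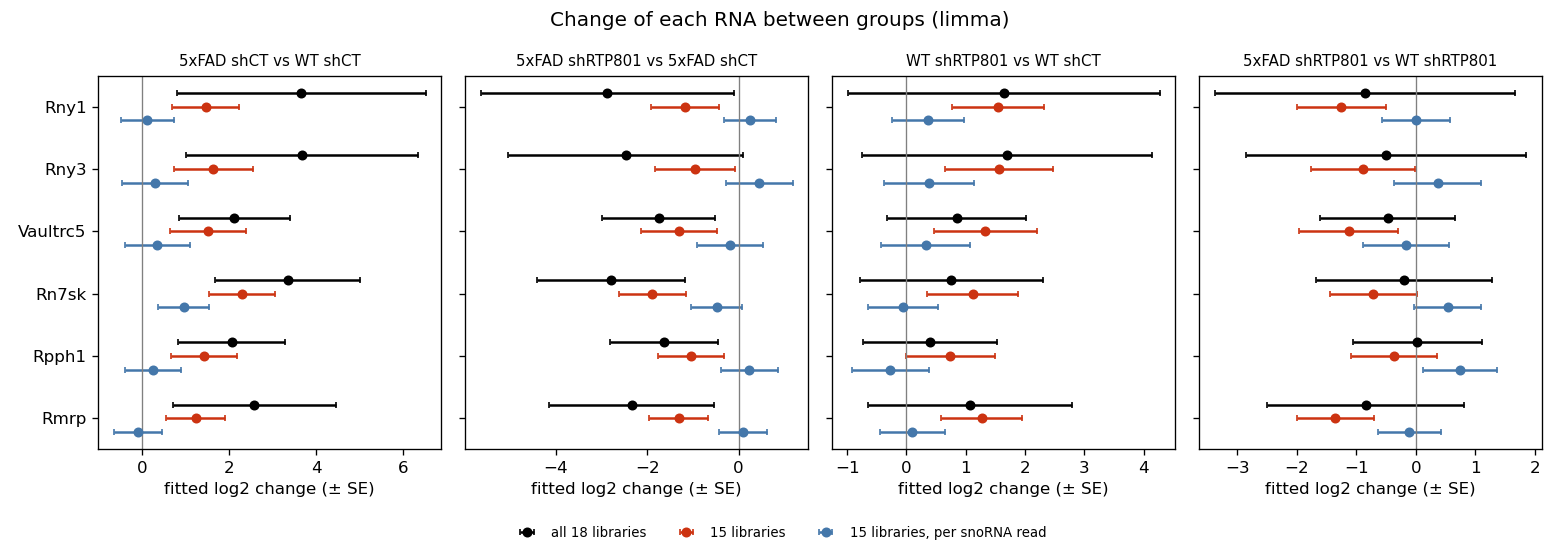
Fitted log2 changes of each RNA with their standard errors in the 4 comparisons of groups, from limma on all 18 libraries (black), on the 15 libraries with under 95% mature tRNA (red) and on those 15 per snoRNA read (blue). For 5xFAD shCT against WT shCT the black values lie between 2.05 and 3.67 and the blue values between -0.11 and 0.95.

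The members' levels moved with the snoRNA share of the library. Over all 18 libraries, Pearson's r between log2 RPM of a member and of summed snoRNA reads was 0.978 for Rny1, 0.966 for Rny3, 0.889 for Vaultrc5, 0.966 for Rn7sk, 0.917 for Rpph1 and 0.986 for Rmrp. Over the 15 it was 0.914, 0.764, 0.877, 0.907, 0.801 and 0.955 in the same order. The snoRNA share was not the only one that went with the members. With summed mitochondrial tRNA reads, r over all 18 ran from 0.779 for Vaultrc5 to 0.969 for Rny1. Over the 15 it ran from 0.448 for Rpph1 to 0.831 for Vaultrc5. With summed precursor tRNA reads, r over all 18 ran from -0.945 for Rny3 to -0.880 for Vaultrc5. These are descriptions of libraries that share a total and a composition. Per 1000000 snoRNA reads over the 15 libraries, the difference of 5xFAD shCT from WT shCT was 0.95 ± 0.59 for Rn7sk, 0.34 ± 0.75 for Vaultrc5, 0.29 ± 0.76 for Rny3, 0.23 ± 0.65 for Rpph1, 0.11 ± 0.60 for Rny1 and -0.11 ± 0.55 for Rmrp, while the median of all rows was -0.73 (limma adjusted p from 0.379 to 0.936). Among the members Rn7sk lay farthest from 0 on this scale.

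**Figure D5:**
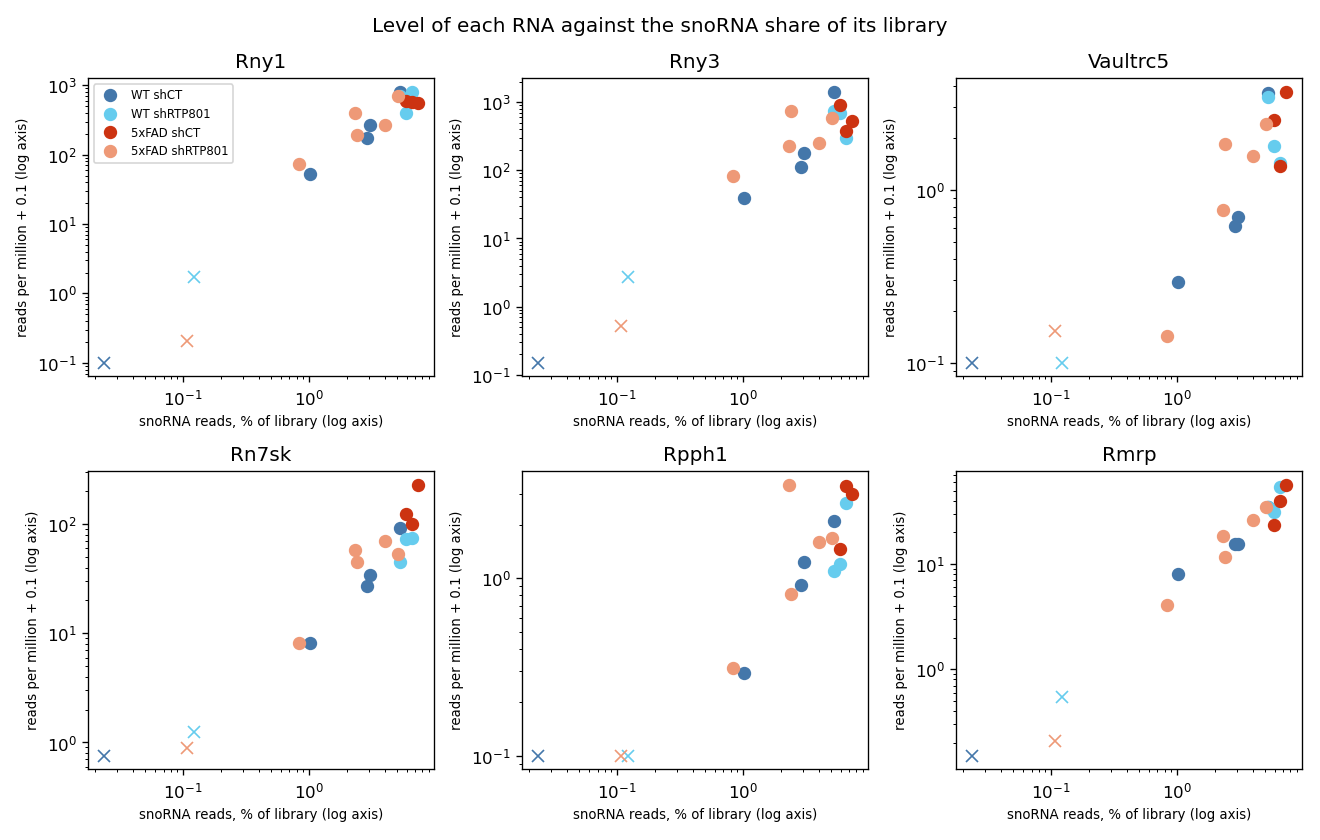
Level of each RNA as RPM plus 0.1 against the share of snoRNA reads in the same library, both on log axes, for the 18 libraries. Colours mark the groups and crosses the 3 libraries with over 95% mature tRNA, at 0.0234% to 0.123% snoRNA. In each panel the libraries with little snoRNA have low levels.

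The rows most like each member over the 18 libraries were mostly other small RNAs of the same libraries. They were Gm23130, mt-Rnr1 and Snord33 for Rny1 (r = 0.993 to 0.994), Gm25682, Gm23686 and Gm24455 for Rny3 (0.988 to 0.993), and Gm24888, Snora73a and Gm22879 for Vaultrc5 (0.974 to 0.977). For Rn7sk they were Gm26035, Gm24447 and mt-Rnr2 (0.986 to 0.988), for Rpph1 Gm49349, Gm26447 and Gm22451 (0.964 to 0.983), and for Rmrp Gm23344, mt-Rnr1 and Gm25878 (0.991 to 0.993). Over the 15 libraries mt-Rnr2, a mitochondrial ribosomal RNA, had the highest r with Rn7sk (0.958), and Gm49349 again with Rpph1 (0.951). Between members, r over the 15 was 0.571 for Rny3 with Rpph1, the lowest, and 0.905 for Rny3 with Vaultrc5, the highest. The Y RNAs had r = 0.822 with each other. For comparison, the median r of a member with all other rows was high over the 18 libraries, from 0.601 for Vaultrc5 to 0.723 for Rny1. Over the 15 it was 0.165 for Vaultrc5 to 0.352 for Rny1.

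Other RNA polymerase III transcripts were looked for by name. Of these, 9 rows were tested: Rn7s2, a 7SL RNA of the signal recognition particle that stood for its near-identical copy Rn7s1, Rn7s6, Gm24540, which stood for the U6 spliceosomal RNA Rnu6, Rnu6-ps2 and 5 rows of the selenocysteine tRNA. Of the 9, 0 passed the adjusted threshold in each comparison on all libraries. Without the 3 libraries 1 of 9, the 5′ reads of the selenocysteine tRNA, was called for the interaction (-5.53 ± 1.37, limma adjusted p = 0.048), beside 1.88% of all rows, and none was called in the 4 comparisons of groups. All 9 were higher in 5xFAD shCT than in WT shCT, with a median of 2.64, and 3 of them, all of the selenocysteine tRNA, had an unadjusted p below 0.05 (limma adjusted p = 0.554). Rn7s2 differed by 2.90 ± 2.27 and Gm24540 by 3.23 ± 2.47 (limma adjusted p = 0.554 for both). All 9 were lower in 5xFAD shRTP801 than in 5xFAD shCT, with a median of -1.33. Per 1000000 snoRNA reads over the 15 libraries, 6 of 9 were higher in 5xFAD shCT than in WT shCT, with a median of 0.53.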

How the data were processed

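Small RNA of hippocampus from 18 mice was gel-selected, hydrolysed and sequenced. The authors deposited 1 table of size-factor normalised counts, a normalised signal per row with no raw counts, made with tRAX on mm39 per the labels and methods (aligner and version are not given in the sources used here). Within each library every value was a whole multiple of its smallest value (100% of values, tolerance 0.01), so reads were recovered, and 324 rows within 5% of another row were left out of totals as near-identical copies. Reads per 1000000 reads (RPM) were tested, on the log2(RPM + 0.1) scale, by limma 3.58.1 under R 4.3.3, over 1973 rows with a mean of at least 0.1 RPM and all 4 groups, with Benjamini-Hochberg adjustment at 0.05. Each member was also tested by a two-sided exact permutation test of group means (24 tests, unadjusted), in Python 3.11.15. Wilson intervals came from scipy 1.17.1. Alternatives were edgeR 4.0.16 with recovered reads, DESeq2 1.42.0, other scalings, pseudocounts and filters, array weights and leaving out each mouse. Leaving out the 3 libraries above 95% mature tRNA was added after seeing the data. Fits were tested on simulated data. Limits of 0 reads use 3 reads. The RNAs named were the 6 members, a list of RNA polymerase III transcripts and the 3 rows most correlated with each member. The members and lists were chosen with earlier results of these data known. Annotated lengths and neighbours came from RefSeq GRCm38.p6, and no coordinates were used.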

Additional observations from a re-analysis of the deposited data

Results flagged for a closer look

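Among 18 sets of 4 or more libraries tested for a distant lowest or highest value, 2 had one, where chance flags about 1 in 20. Rny3 was 1407 RPM in WT shCT mouse 15, far above the next WT shCT mouse at 177 RPM. Vaultrc5 was 3.53 RPM in the same mouse, where the next was 0.592 RPM. That library had the lowest mature tRNA share, 31.9%, and the highest 5S rRNA share, 13.3%, of the 18, and the part of this in the values was not tested.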

How the results depend on the processing

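No paired analysis was possible because each number in the labels belongs to 1 mouse and no 2 groups share a number. Depth limits Rpph1 and Vaultrc5, with medians of 32.5 and 31.0 reads. The counts of rows and members called stayed at 0 in each comparison under every alternative and without each mouse in turn, except as follows. Weighting the libraries (limma array weights, whose estimate stopped before full convergence) called 616 rows and 4 members for 5xFAD shCT against WT shCT, 764 rows and 3 members for WT shRTP801 against WT shCT, and 667 rows and 5 members for the interaction; Rn7sk was then 2.32 higher in 5xFAD shCT than in WT shCT (limma adjusted p = 0.00485, against 0.439 without the 3 libraries). For the interaction, 37 rows were called without the 3 libraries and 396 without them per snoRNA read, and 0 members in both. Exact permutation p below 0.05 numbered 0 of 24, but 2 in RPM without the log, 1 without the 3 libraries, and 0 to 1 without each mouse (1 without 5xFAD shRTP801 mouse 7, for Rn7sk, and 1 without WT shCT mouse 15, for Vaultrc5). Signs of small differences turned as follows, and the cause was not tested. Per snoRNA read without the 3 libraries, Rmrp was -0.11 for 5xFAD shCT against WT shCT; Rmrp 0.10, Rny1 0.25, Rny3 0.46 and Rpph1 0.24 for 5xFAD shRTP801 against 5xFAD shCT; Rn7sk 0.53 and Rny3 0.37 for 5xFAD shRTP801 against WT shRTP801; Rn7sk -0.0572 and Rpph1 -0.27 for WT shRTP801 against WT shCT; and Rny3 0.0785 and Rpph1 0.51 for the interaction. Per snoRNA read on all libraries, 5xFAD shRTP801 against WT shRTP801 gave Rn7sk 0.40, Rny3 0.0804 and Vaultrc5 0.70, WT shRTP801 against WT shCT gave Rn7sk -0.37 and Rpph1 -0.32, and the Rpph1 interaction was 0.0260. Per read of other small RNAs the former pair gave Rn7sk 0.15 and Vaultrc5 0.50, and the latter Rn7sk -0.29 and Rpph1 -0.24. With DESeq2, Rny3 was -0.0372 for WT shRTP801 against WT shCT. Rpph1 for 5xFAD shRTP801 against WT shRTP801 was -0.19 with DESeq2, -0.20 with array weights, -0.11 on deposited values, -0.00270 with a pseudocount of 1, -0.36 without the 3 libraries and -0.12 without them by edgeR. Without each mouse in turn, 5xFAD shRTP801 against WT shRTP801 ranged from -2.39 to 0.19 for Rmrp, -1.62 to 0.70 for Rn7sk, -2.97 to 0.85 for Rny1, -2.41 to 1.02 for Rny3, -0.96 to 0.62 for Rpph1 and -1.57 to 0.14 for Vaultrc5. WT shRTP801 against WT shCT ranged from -0.27 to 2.62 for Rmrp, -0.29 to 2.17 for Rn7sk, -0.57 to 3.75 for Rny1, -0.35 to 3.61 for Rny3 and -0.24 to 1.38 for Rpph1, the negative values without WT shCT mouse 5 (for Rpph1 also without WT shRTP801 mouse 10). For 5xFAD shCT against WT shCT and 5xFAD shRTP801 against 5xFAD shCT, all 6 members kept their direction without each mouse.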

Other observations

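Of 1973 rows tested, 7 had every 5xFAD shCT library above the other 15, and they were named after their values were seen. Beside Rn7sk they were Gm23130 (1542 to 1572 RPM in 5xFAD shCT, at most 1416 elsewhere), Snord2 (1004 to 1466, at most 938), Gm24201 (3.18 to 4.13, at most 2.66), Gm23419 (0.939 to 2.06, at most 0.918), the 5S rRNA row n-R5s7 (0.488 to 0.727, at most 0.415) and partial precursor reads of tRNA-Tyr-GTA-2-1 (11.02 to 11.8, at most 5.99).

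The Rny3 over Rny1 ratio differed between mice by the number in their label, a split chosen after its values were seen. Over the 15 libraries it was 0.380 to 0.929 in the 7 mice numbered up to 11 and 0.855 to 3.79 in the 8 numbered from 12, so the ranges met at 2 mice. The share of 5S rRNA reads, counted over every gene copy, was 10.1% to 28.5% and 12.4% to 55.6% in the same sets, with medians of 15.5% and 41.5%. Both sets held mice of each group, but not in balance. WT shCT mice 3, 6 and 11 and 5xFAD shCT mouse 1 were in the former, and WT shCT mouse 15 and 5xFAD shCT mice 16 and 18 in the latter. The snoRNA share also differed, with medians of 3.04% and 5.31%, as did the reads, with medians of 2.11e+07 and 2.86e+07. What the numbers stand for is not given in the sources used here, and the part of handling in this ratio was not tested.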
